A study of Homo sapiens with 6 samples.

Results

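RNA bound to TIRR in irradiated U2OS cells was set against the RNA present in irradiated U2OS cells, gene by gene. The comparison took 2 iCLIP libraries and 1 RNA-seq library and kept the genes that were listed in both assays and had at least 50 RNA-seq counts. That left 11011 genes of the 39020 listed anywhere in the series. Each gene's count was divided by all counts on genes in its library, with intergenic counts left out, and the iCLIP share was then divided by the RNA-seq share. A ratio of 1 means that a gene took the same share of both assays.

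The iCLIP cells were U2OS, a human osteosarcoma line, of the genotype TIRR_FLAG, stably transfected with a FLAG-tagged TIRR. The RNA-seq cells were U2OS of the genotype WT. All 3 irradiated libraries came from cells given 5 Gy of X-rays and 4 h of recovery, per the labels, although for RNA-seq the study's design names gamma rays. A matching set of 2 untreated iCLIP libraries and 1 untreated RNA-seq library was used for comparison. Every iCLIP library therefore carries the tag and every RNA-seq library lacks it, so assay and genotype cannot be told apart. Cells with the empty vector are not analysed here, so cDNA recovered without TIRR cannot be told apart from cDNA recovered with it.

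TIRR is the product of NUDT16L1, a member of the Nudix family. It binds the Tudor domain of 53BP1, the product of TP53BP1, and thereby keeps that repair protein from the chromatin marks it reads at DNA double-strand breaks. In iCLIP, ultraviolet light crosslinks a protein to the RNA it touches, the protein is pulled down (here with FLAG antibodies), and the attached RNA fragments are converted to cDNA and counted. Nuclear RNA includes retained long noncoding RNAs and unspliced precursors with their introns, whereas most mature messenger RNA is cytoplasmic.

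The irradiated iCLIP libraries held 400723 and 664777 counts on genes, and the irradiated RNA-seq library held 13023903. Intergenic counts made up 31.3% and 30.9% of the iCLIP libraries and 44.4% of the RNA-seq library. The compared genes took 87.7% of the gene counts in either iCLIP library and 78.3% of those in RNA-seq. A further 3725 genes with at least 50 RNA-seq counts had no row in either irradiated iCLIP table, and 3324 of them had none in any of the 4 iCLIP tables used here. These include very abundant messages such as COL1A1 (44204 RNA-seq counts), FLNA (28152) and SPARC (24912), and no value was read from the missing rows. The labelled cell line was checked against marker genes: 10 mesenchymal and bone matrix markers held 143180 RNA-seq counts. By comparison 6 epithelial markers held 466, 5 blood markers 14 and 5 neural markers 360. In the irradiated iCLIP libraries the mesenchymal set held 465 and 782 counts and the neural set 62 and 105. The epithelial set held 3 and 5 there, and the blood set 1 and 2. Among markers with at least 50 RNA-seq counts, 3 of 9 mesenchymal, 1 of 3 epithelial and 1 of 3 neural ones had no row there. COL1A1 and SPARC are among them. Missing markers were summed as 0, so the sums of both assays cover unlike genes.

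The genes with the largest iCLIP shares were mostly not those with the most RNA. A gene was called high when the exact 95% interval of its ratio lay wholly above 4 in both iCLIP libraries, and low when both intervals lay wholly below 1/4. These intervals cover counting error only, and with 1 RNA-seq library the ratio has no replicate check on that side. By this rule 1008 of the 11011 genes were high (9.15%) and 689 were low (6.26%). The high genes took 36.99% and 36.34% of the iCLIP counts but 2.68% of the RNA-seq counts, and the low genes took 1.16% and 1.21% of the iCLIP counts but 25.5% of the RNA-seq counts. The median log2 ratio over all compared genes was -0.19, with a quartile range of -1.70 to 1.25. The irradiated iCLIP libraries differed by a median of 0.22 on the log2 scale over the 3944 genes with at least 20 counts in both.

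At the upper threshold the lower interval bound was 4.003 for C19orf25, just inside, and 3.995 for PIGL, just outside. At the lower threshold the upper bound was 0.2499 for SNRPB, inside, and 0.2507 for B2M, outside.

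**Figure D1:**
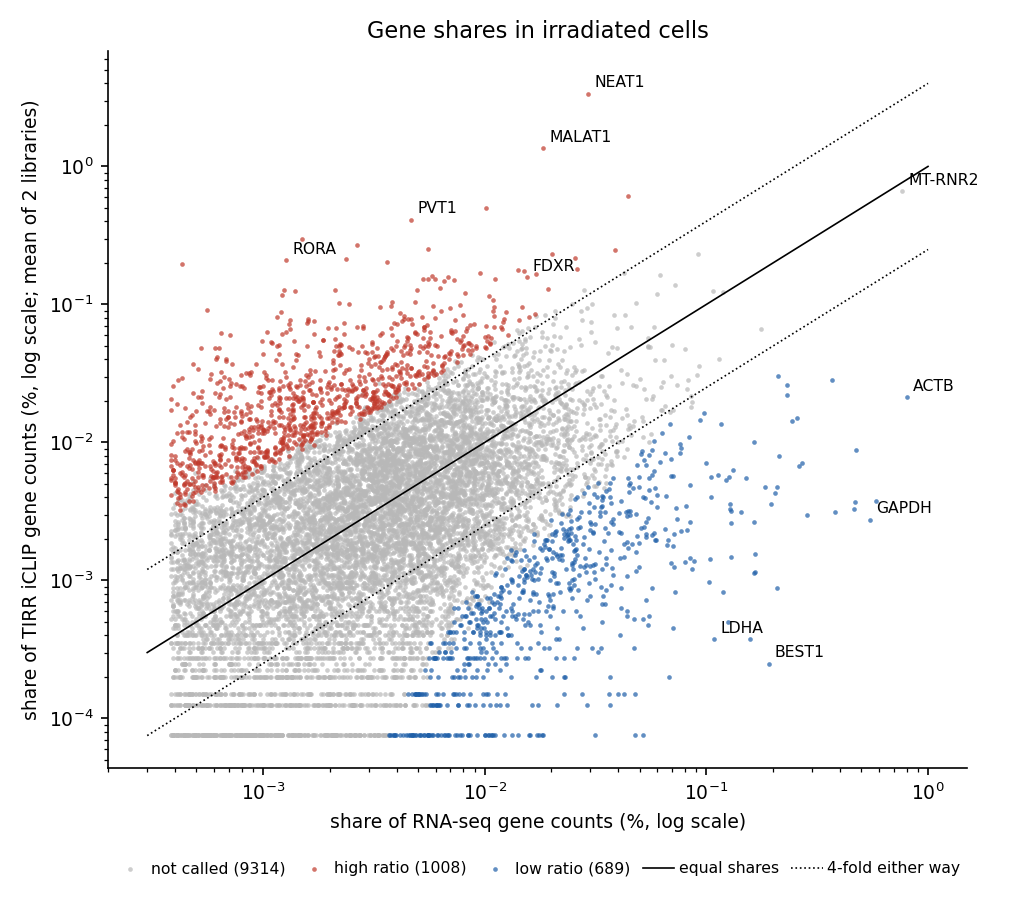
Each point is 1 of the 11011 compared genes, with its share of RNA-seq gene counts (x, percent, log scale) and its mean share of the 2 irradiated iCLIP libraries (y, percent, log scale). High genes (red, 1008) lie at upper left and low genes (blue, 689) at lower right; NEAT1 and MALAT1 stand at the top of the iCLIP axis, and ACTB and GAPDH at the far right of the RNA-seq axis.

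Both call counts depend on how the libraries are scaled. With TMM factors, which assume that most genes keep their share, every log2 ratio moved down by 1.22 and the calls became 357 high and 1992 low. With intergenic counts kept in the totals they were 1236 high and 521 low, and edgeR's test beyond 4-fold in a fit of all 6 libraries gave 657 high and 2297 low at an adjusted p under 0.05. High genes were thus 59.4% of all calls by the rule, 15.2% with TMM factors, 70.3% with intergenic counts kept and 22.2% in the edgeR test. For that reason groups of genes are set against the median of all compared genes, since rescaling a library moves both alike. With TMM factors FDXR, BBC3, MIR34AHG, NDUFA10, SS18L1 and TNRC18 were no longer called high, and with intergenic counts kept OIP5-AS1 was no longer called low. A low call was also out of reach for weakly expressed genes: with no iCLIP counts at all, a gene needed at least 482 RNA-seq counts. Of the 4931 genes at or above that depth, 13.97% were low. Median RNA-seq counts were 196.5 for high genes, 2314 for low genes and 412 for all compared genes. The RNA-seq count is the divisor of the ratio, and no list was adjusted for it.

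NEAT1, the scaffold RNA of nuclear paraspeckles, had the largest iCLIP share of the compared genes. It lies at chr11:65422798-65445540 (GRCh38.p14). It held 13598 and 22190 counts in the irradiated iCLIP libraries, which is 3.39% and 3.34% of their gene counts, against 3801 counts or 0.0292% in RNA-seq. Its ratio of shares was 115 ± 1.34 (SD, n = 2 iCLIP libraries). MALAT1, the abundant RNA of nuclear speckles at chr11:65497738-65506516, followed with 5379 and 9086 iCLIP counts (1.34% and 1.37%) and 2392 RNA-seq counts, a ratio of 73.8 ± 0.94. Both libraries gave nearly the same ratio for either RNA.

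Other genes among the 10 largest iCLIP shares were MT-RNR2, NTM, PVT1, ZFPM1, SDK1, TNRC18 and ACTN1. NTM encodes neurotrimin, a cell adhesion protein, from a gene of 966 kb, and held 2037 and 3281 iCLIP counts against 1316, a ratio of 49.6 ± 1.03. Another 2 of these genes were not called: ACTN1, which encodes an actin crosslinker, had a ratio of 2.53 ± 0.029, and the mitochondrial large ribosomal RNA MT-RNR2 had 3537 and 2914 iCLIP counts against 99387, with ratios of 1.16 and 0.574.

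The 12 highest ratios among called genes with an approved symbol ran from 73.8 to 165, and 5 of the 12 belonged to noncoding RNAs. RORA, which encodes a nuclear receptor of the circadian clock and spans 740 kb at chr15:60488284-61229302, had 841 and 1377 iCLIP counts against 165 in RNA-seq, a ratio of 165 ± 1.53. SMOC2, which encodes a secreted calcium-binding matrix protein, had 351 and 632 counts against 73, a ratio of 163 ± 9.43. ZFPM1, a cofactor of GATA transcription factors, had 1374 and 1305 counts against 346, and its ratios of 129 and 73.9 differed between the libraries by more than counting error. The others were SPACA6, GNAS-AS1, PTPRN2, PVT1, TSNARE1, MAGI2 and LINC01876. Another 2 loci without an approved symbol lay above RORA. GNAS-AS1 held 169 and 360 iCLIP counts against 68 in RNA-seq although GNAS, the gene beside it, held 22865 RNA-seq counts.

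The 12 lowest ratios belonged to short genes with much RNA, all under 25 kb. GAPDH, the glycolytic dehydrogenase at chr12:6534517-6538371, had 10 and 20 iCLIP counts against 71336 in RNA-seq, so its share was 199-fold lower in iCLIP. The mitochondrial oxidase subunit MT-CO1 had 17 and 22 iCLIP counts against 75581, a 154-fold lower share. FTH1, the ferritin heavy chain, had 4 and 5 counts against 27103, a 238-fold lower share. LDHA, lactate dehydrogenase A, had 0 and 5 counts against 14160, and the upper limits of its ratio were 0.00847 and 0.0161. TUBA1B, an alpha tubulin, had 0 and 5 counts against 20491, UQCC6 had 0 and 6 against 9162, and RPS27A, a ribosomal protein fused to ubiquitin, had 0 and 2 against 4713. BEST1, CALM2 and MIF-AS1 also had 0 counts in 1 library, and EIF4A1 and MT-ATP8 completed the set. Each 0 among these genes stands for a missing row in that library, so their ratios and limits rest on reading it as 0.

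Several of the lowest genes had a neighbour with almost the same RNA-seq count. BEST1, which encodes a chloride channel of the retinal pigment epithelium, was listed with 24871 RNA-seq counts and overlaps FTH1, which had 27103. TUBA1B-AS1 had 23832 counts beside TUBA1B with 20491, STEAP3-AS1 had 3585 beside STEAP3 with 3642, BTNL12P had 6170 beside FSTL1 with 6726, and MIF-AS1 had 5219 beside MIF with 4297. In iCLIP the pairs differed in kind. STEAP3 held 80 and 120 counts and STEAP3-AS1 0 and 2, and FSTL1 held 43 and 75 and BTNL12P 3 and 2. The order was the other way for TUBA1B-AS1, with 20 and 30 counts, and TUBA1B, with 0 and 5, and both FTH1 and BEST1 held 5 counts or fewer. The intergenic row of the RNA-seq tables has a length of 4291815975 bases, more than the 3087006970 bases that the genes' chromosomes span, so the tables lay out both strands separately. No source used here states whether the RNA-seq library keeps the strand, so reads of such partners cannot be told apart and the low ratios of BEST1, BTNL12P and the antisense genes are uncertain. Among genes with a RefSeq position, 35.7% of low genes and 43.3% of all compared genes had a gene within 5000 bases that held at least 50% of their own RNA-seq count. For low genes of 50 kb and over the shares were 47.1% of 70, against 32.7% of all 4257 such genes. Among the 2403 genes with no other gene within 5000 bases, 257 were high and 96 were low.

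**Figure D2:**
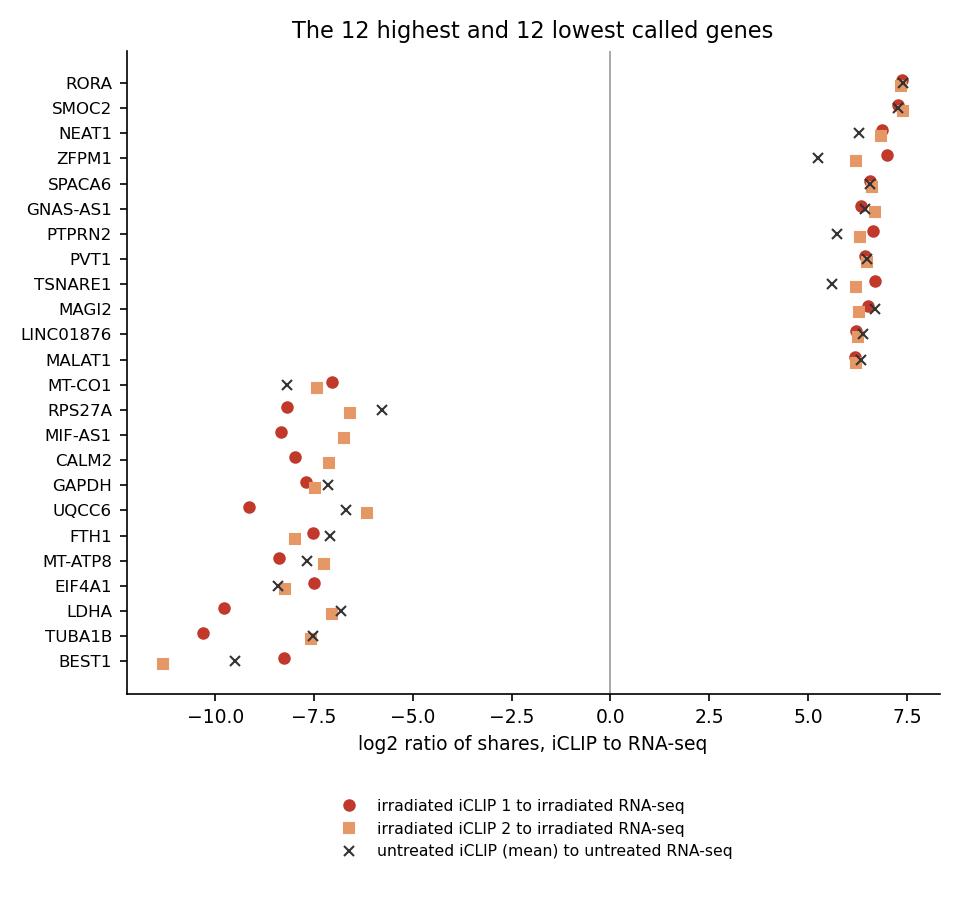
The log2 ratio of iCLIP to RNA-seq shares (x, prior count of 0.5) for the 12 highest and 12 lowest called genes with approved symbols (y); circles and squares are irradiated iCLIP libraries 1 and 2, and crosses are the mean of the untreated libraries against untreated RNA-seq. Low genes with 0 counts in 1 library, such as BEST1, LDHA and TUBA1B, spread more between libraries than the high genes, and crosses are missing for CALM2 and MIF-AS1, which were not compared in untreated cells.

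Longer genes had higher ratios. Across the 11011 genes Spearman's rho between the mean log2 ratio and gene length was 0.58 and Pearson's r with log10 length was 0.58. These are descriptions across genes, which share the same libraries and depth and are not replicates. The iCLIP counts themselves had a rho of 0.60 with length and the RNA-seq counts 0.02, and the rho between both assays was 0.35. The median log2 ratio was -2.32 for the 288 genes under 2 kb, -1.98 for 1759 genes of 2 to 10 kb, -0.73 for 4326 genes of 10 to 50 kb, 0.65 for 3530 genes of 50 to 200 kb, 2.14 for 880 genes of 200 to 500 kb and 3.28 for 228 genes of 500 kb and over. Each longer bin had a higher median than the one before. High calls went from 2 of 288 in the shortest bin to 167 of 228 in the longest, or from 0.694% to 73.2%. Of the genes with enough RNA for a low call, 61.7% of those under 2 kb and 1.79% of those of 500 kb and over were low.

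**Figure D3:**
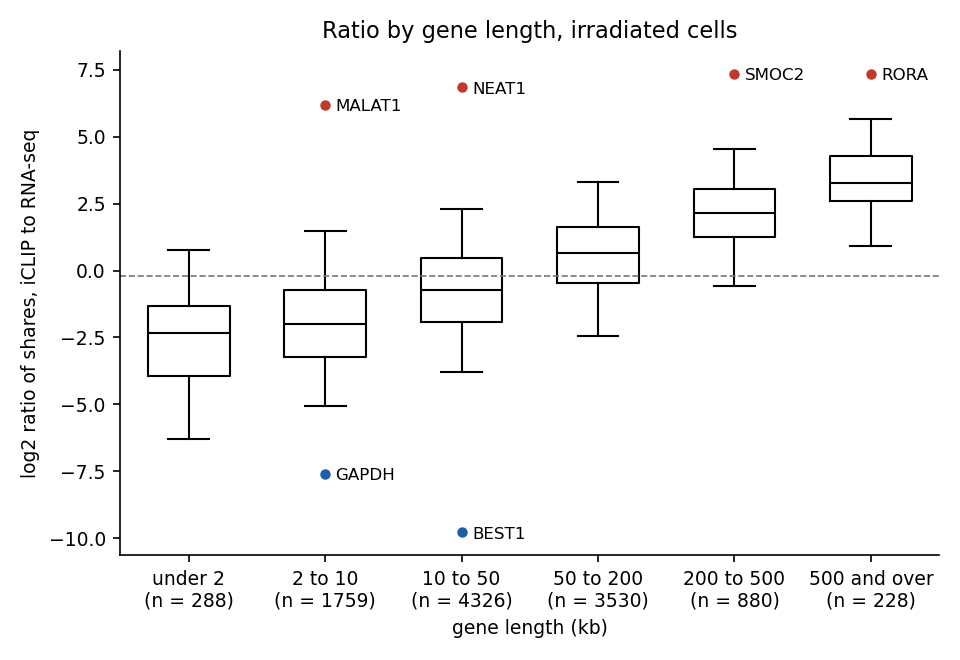
Boxes show the log2 ratio of iCLIP to RNA-seq shares (y) by gene length in kb (x); lines are medians, boxes quartiles, whiskers the 5th to 95th percentiles, and the dashed line is the median of all genes, -0.19. Medians go from -2.32 under 2 kb to 3.28 at 500 kb and over, and MALAT1 and NEAT1 lie far above genes of their own length, while GAPDH and BEST1 lie far below.

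Protein-coding genes and long noncoding RNA genes both had higher medians at greater length. Among protein-coding genes the median was -2.94 under 2 kb (162 genes) and 3.31 at 500 kb and over (188 genes). For lncRNA genes it was -1.39 (20 genes) and 2.76 (23 genes). Over all lengths the 8946 protein-coding genes had a median of -0.10 with 767 high and 540 low, and the 767 lncRNA genes a median of -0.26 with 111 high and 38 low. High calls thus made up 14.5% of lncRNA genes and 8.57% of protein-coding genes. The 89 transcribed pseudogenes had a median of -0.12 with 9 high and 2 low, led by LRP5L with 152 and 285 iCLIP counts against 80 in RNA-seq. Of 20 pseudogenes, PHF2P2 was high with 245 and 409 counts against 158, and MTATP6P1 and MTND2P28, nuclear copies of mitochondrial genes whose reads cannot be told apart from their originals, were low. A RefSeq class was found for 89.3% of the compared genes, apart from the mitochondrial ones.

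A small set of short genes went against the gradient. Of 2047 genes under 10 kb, 27 were high, 22 of them with an approved symbol. MALAT1 led them, followed by MAGEA4-AS1 with 354 and 588 iCLIP counts against 157 in RNA-seq (ratio 73.3 ± 0.065), beside MAGEA4 with 2237 RNA-seq counts. ZNF581, which encodes a zinc finger protein, had 278 and 549 counts against 208 (47.6 ± 5.85). CSKMT, which encodes a mitochondrial methyltransferase, had 91 and 191 against 105 (31.9 ± 5.28), and HOXB6, a homeobox gene, had 92 and 164 against 153 (20.3 ± 1.03). PABPN1, the nuclear poly(A)-binding protein, had 405 and 619 against 757 (16.7 ± 0.97), but overlaps BCL2L2-PABPN1 with 1057 RNA-seq counts. Of the 22 with a position, 16 (72.7%) had a gene within 5000 bases that held at least 50% of their own RNA-seq count, against 58.9% of all positioned genes under 10 kb. The short genes named here, other than MALAT1 and those the naming rule gives, were chosen after their values were seen.

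Among long noncoding RNAs, a list of 16 compared genes, most but not all known as nuclear RNAs, had a median log2 ratio of 2.94, and 10 were high and 1 was low. High members besides NEAT1, MALAT1 and PVT1 included MIAT (4.85), a nuclear RNA, and FTX (3.96), a regulator of the X-inactivation centre. The members with ratios under 1 were NORAD and OIP5-AS1, both known as cytoplasmic RNAs, and TUG1. When all compared genes were split into 10 groups by length, 15 of the 16 list members lay above the median of their group and 1 below. NORAD, which binds Pumilio proteins, had 39 and 76 iCLIP counts against 3217 in RNA-seq, a ratio of 0.428 ± 0.049. OIP5-AS1 was called low with 2 and 1 counts against 1049. Its intervals reached from 0.00749 to 0.224 and from 0.000472 to 0.104. TUG1 had 46 and 61 counts against 3066, a ratio of 0.439 ± 0.069. The 148 numbered LINC genes had a median of 1.38, 42 high and 4 low, from LINC01876 (6.25) to LINC02136 (-5.31). Named antisense genes had a median of -1.20 over 412 genes, with 27 high (6.55%) and 31 low (7.52%), against 9.15% and 6.26% of all compared genes. Only 102 of the 412 had enough RNA-seq counts for a low call. Of all compared genes with enough, 13.97% were low. With TMM factors 9 of the 412 antisense genes were high and 88 low. Of those 31 low genes, 26 lay beside a gene with at least 50% of their RNA-seq count, as did 360 of the 395 antisense genes with a position.

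Host genes of microRNAs were among the highest lists, with a median log2 ratio of 3.21 over 17 compared genes, 10 high and 0 low. Only 2 of the 17 had enough RNA-seq counts for a low call. A host gene's transcript is the precursor that the nuclear enzyme Drosha cuts to release a microRNA hairpin. The mature microRNAs encoded in 5 of the high host genes are shown, to name the products of these precursors, from RefSeq on GRCh38.p14, 5′ to 3′, with the seed (bases 2 to 8) in capitals. Mature microRNAs were kept for 16 of the 17 host genes, after a filter that left out some matches by chromosome.
hsa-let-7a-5p: uGAGGUAGuagguuguauaguu
hsa-let-7b-5p: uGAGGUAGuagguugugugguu
hsa-miR-221-3p: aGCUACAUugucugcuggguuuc
hsa-miR-222-3p: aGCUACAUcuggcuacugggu
hsa-miR-23a-3p: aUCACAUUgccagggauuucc
hsa-miR-27a-3p: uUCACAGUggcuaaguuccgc
hsa-miR-24-3p: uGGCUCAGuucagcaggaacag
hsa-miR-100-5p: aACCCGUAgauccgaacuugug
hsa-miR-125b-5p: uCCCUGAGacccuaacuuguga
hsa-miR-34a-5p: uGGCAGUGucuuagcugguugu

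The let-7 pair shares one seed and the miR-221 and miR-222 pair shares another. MIRLET7BHG carries let-7a-5p at chr22:46112752-46112773 and let-7b-5p at chr22:46113691-46113712 on the plus strand. It had 105 and 168 iCLIP counts against 92 in RNA-seq, a ratio of 36.4 ± 0.93. MIR222HG carries miR-221-3p at chrX:45746180-45746202 and miR-222-3p at chrX:45747036-45747056 on the minus strand, and had 90 and 148 counts against 83 (35.1 ± 0.22). MIR23AHG carries miR-24-3p, miR-27a-3p and miR-23a-3p at chr19:13836289-13836310, chr19:13836447-13836467 and chr19:13836595-13836615 on the minus strand, and had 133 and 245 counts against 178 (25.6 ± 1.90). MIR100HG carries miR-125b-5p at chr11:122099809-122099830 and miR-100-5p at chr11:122152275-122152296 on the minus strand, with another copy of let-7a-5p between them, and had 94 and 151 against 140 (21.5 ± 0.49). MIR34AHG, the host of the p53-induced miR-34a at chr1:9151735-9151756 on the minus strand, had 117 and 135 against 343, with ratios of 11.1 and 7.71. Of the 24 compared host genes of small nucleolar RNAs, 10 had enough RNA-seq counts for a low call. The 24 genes had a median of 0.52, with 1 high and 0 low. The high one was SNHG22, with 267 and 605 counts against 587, and DANCR (-3.03) was the lowest.

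Genes for the translation machinery lay far below the median of all genes. The 41 compared large-subunit ribosomal proteins had a median log2 ratio of -4.53 with 30 low and 0 high, and the 26 small-subunit proteins a median of -4.86 with 23 low and 0 high. All 67 lay under 0, up to -0.82 for RPL41. Over all compared genes 6.26% were low, or 13.97% of those with enough RNA-seq counts for a low call. RPL4 had 17 and 35 iCLIP counts against 27148 in RNA-seq, a 43.9-fold lower share, and RPLP0 had 3 and 10 against 21437, with ratios of 0.00455 (interval 0.000938 to 0.0133) and 0.00914. RPL41, the shortest ribosomal protein, had 76 and 125 against 4362, a ratio of 0.564 ± 0.0034. Ribosomal protein genes have many processed copies in the genome, and how reads shared with those copies were counted is not given. A further 6 large-subunit and 5 small-subunit genes with at least 50 RNA-seq counts had no row in the irradiated iCLIP tables.

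Ribosomal protein genes begin with a pyrimidine tract at the start site, known as the 5′ TOP motif. The letters CTTTC were searched in the RefSeq sequences (GRCh38.p14) from 10 bases before to 20 bases after the start, a window of 30 bases. On the coding strand they occurred in 24 of 52 ribosomal protein genes (46.2%), 41 of 472 low genes (8.69%), 27 of 687 high genes (3.93%) and 1110 of all 27305 starts in the table (4.07%). Without ribosomal proteins the share among low genes was 5.32%. On the opposite strand they occurred in 0 of 52, 12 of 472, 20 of 687 and 864 of 27305 windows. Within the ribosomal proteins the letters were found in 18 of 40 low genes and 6 of 12 genes that were not called. A match describes the letters only. The GC content from 250 bases before to 50 bases after the start had a median of 67.0% in high genes, 63.5% in low genes and 65.3% in all compared genes with an entry.

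Translation factors followed, with a median of -3.18 over 29 genes, 16 low and 0 high. EEF1A1, the elongation factor that delivers aminoacyl-tRNA, had 15 and 24 iCLIP counts against 60790, a 127-fold lower share. PABPC1, the cytoplasmic poly(A)-binding protein, had 60 and 99 against 33436, a 17.2-fold lower share. EIF4E, the cap-binding protein, was the highest member at 0.44. Chaperones had a median of -4.35 with 18 of 22 low, and glycolytic enzymes a median of -4.09 with 8 of 13 low, led by LDHA and GAPDH, while ENO2 (0.27) was the highest. Of 22 actin, tubulin and tropomyosin-type genes 11 were low: ACTB had 92 and 129 iCLIP counts against 104522, a 37.9-fold lower share, and TUBB 113 and 187 against 48277, a 13.2-fold lower share. Proteasome subunits (median -2.69, 7 of 27 low) and G2 and mitosis genes (median -2.28, 6 of 32 low, CDC20, BIRC5 and TOP2A among them) lay lower than the median of all genes as well. Over all compared genes 6.26% were low, or 13.97% of those with enough RNA-seq counts for a low call. Enough counts were held by 27 translation factors, 22 chaperones, 12 glycolytic enzymes and 22 actin, tubulin and tropomyosin genes. The same held for 25 proteasome and 21 G2 and mitosis genes.

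Counts of calls in the lists moved with the scaling, as they did over all genes. With TMM factors 24 of 27 proteasome genes, 20 of 32 G2 and mitosis genes, 18 of 22 actin, tubulin and tropomyosin genes, 24 of 29 translation factors, 20 of 47 mitochondrial ribosomal proteins and 29 of 50 respiratory chain genes were low. The high counts became 5 of 16 in the long noncoding RNA list, 22 of 148 LINC genes, 9 of 23 neural adhesion genes, 5 of 46 GTPase regulators and 5 of 315 ZNF genes, of which 13 were then low. Among 27 p53 targets 0 were high and 4 low, among 30 repair genes 2 were high and 3 low, and among 22 paraspeckle proteins 0 were high and 9 low. Over all 11011 compared genes, 357 were high and 1992 low with these factors.

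**Figure D4:**
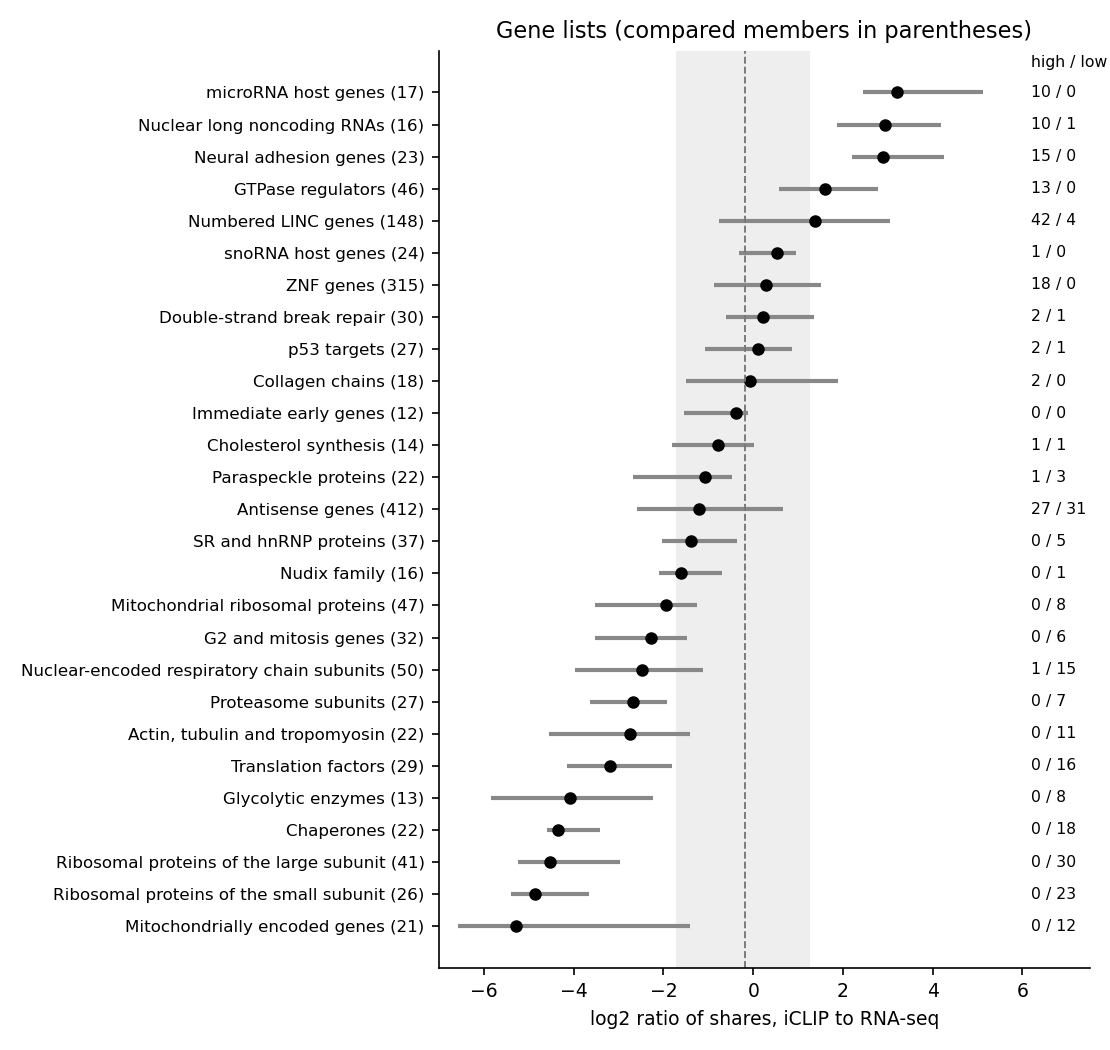
Points are the median log2 ratio of iCLIP to RNA-seq shares (x) of each gene list with at least 10 compared members (y, number in parentheses), and bars are quartiles; the shaded band and dashed line are the quartiles and median of all 11011 genes. The numbers at right are high and low calls: microRNA hosts, the list of mostly nuclear long noncoding RNAs and neural adhesion genes stand highest, and ribosomal proteins and mitochondrially encoded genes lowest.

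Mitochondrially encoded RNAs split by kind. Of 13 protein-coding genes 12 were low, and the median over all 21 compared genes was -5.28. The exception was MT-ND6, the only one of these messages read from the light strand, with 395 and 705 iCLIP counts against 6271 in RNA-seq, a ratio of 2.12 ± 0.11. By comparison MT-CO2, another oxidase subunit message, had 13 and 22 counts against 60209. The ribosomal RNA MT-RNR2 and the 6 transfer RNA genes were not called. Because strand handling is not given, reads from both mitochondrial strands cannot be told apart. Nuclear genes for the respiratory chain lay lower than all genes too, with a median of -2.49 over 50 genes and 15 low. ATP5F1B, the catalytic subunit of ATP synthase, had 5 and 4 counts against 4841, while NDUFA10, a complex I subunit in a gene of 133 kb, was high with 139 and 266 against 763. The 47 mitochondrial ribosomal proteins had a median of -1.95, with 8 low. Enough RNA-seq counts for a low call were held by 37 of the 50 respiratory chain genes and 28 of these 47. Of all compared genes with enough, 13.97% were low.

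Long genes of adhesion and signalling made up the upper end among protein-coding lists. Neural adhesion genes had a median length of 969 kb and a median log2 ratio of 2.90 over 23 genes, with 15 high and 0 low. Only 6 of the 23 had enough RNA-seq counts for a low call. Besides NTM and MAGI2, a synaptic scaffold, the high members included DLG2 with 124 and 226 iCLIP counts against 84 in RNA-seq, and NRXN3, a neurexin, with 99 and 187 against 98. TENM2, which encodes a teneurin adhesion receptor, had the most RNA in the list (3655 counts) and a ratio of 4.51, and was not called. After the median of its length decile was subtracted from each gene, the list's median was 0.55. All 228 genes of 500 kb and over had a median of 0.88 after this step, so it does not fully remove length at that range. Of the 46 GTPase regulators, 18 had enough RNA-seq counts for a low call. The 46 genes had a median of 1.61, 13 high and 0 low, led by RASA3 with 301 and 408 against 344, and their length-adjusted median was 0.21. After the same adjustment the median was 1.82 for the long noncoding RNA list, 3.04 for microRNA hosts, 2.21 for small nucleolar RNA hosts, and -2.62 and -2.64 for the ribosomal proteins of the large and small subunit. Zinc finger genes of the ZNF series had a median of 0.29 over 315 genes, with 18 high and 0 low, and a length-adjusted median of 0.91. Only 49 of the 315 had enough RNA-seq counts for a low call.

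Genes of DNA repair and the p53 response lay near the median of all genes. NUDT16L1 itself had 19 and 42 iCLIP counts against 184 in RNA-seq, with ratios of 3.36 (interval 1.98 to 5.39) and 4.47 (3.12 to 6.28), and was not called. Its iCLIP counts come from cells that carry a TIRR transgene, whose RNA cannot be told apart from that of the endogenous gene. TP53BP1 had 64 and 99 counts against 1051, a ratio of 1.91 ± 0.095. Of 30 double-strand break repair genes (median 0.22), 2 were high, LIG4 among them, and XRCC6 was low. LIG4, the ligase of end joining, had 79 and 141 against 183 (14.6 ± 0.75). XRCC6, which encodes Ku70 of the same pathway, had 28 and 31 against 7409, a 9.77-fold lower share. Of 27 p53 targets (median 0.11), FDXR and BBC3 were high and CCNG1 was low. BBC3, which encodes the apoptosis inducer PUMA, had 179 and 306 against 657 (8.99 ± 0.19), and CCNG1, cyclin G1, had 1 and 11 against 3140. CDKN1A, the cell cycle inhibitor p21, had 99 and 173 against 8111, a ratio of 0.407 ± 0.015. The 22 compared genes for paraspeckle proteins had a median of -1.07 with 1 high (SS18L1) and 3 low, in contrast to the RNA NEAT1. Of the 22, 18 had enough RNA-seq counts for a low call, and 13.97% of all such genes were low.

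The ratios in irradiated cells were close to those in untreated cells, which were computed from separate libraries. In untreated cells 1133 of 11146 genes were high (10.2%) and 874 were low (7.84%). Over the 10545 genes compared in both, 882 genes were high in both conditions, which is 90.4% of the high genes in irradiated and 80.5% of those in untreated cells. Another 586 were low in both, or 89.5% and 73.5%. No gene was high in one condition and low in the other, and the 12 highest genes were high in both. The median absolute difference between the conditions was 0.33 on the log2 scale.

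A change of the ratio after irradiation was tested as the interaction of assay and irradiation over all 6 libraries, with edgeR's quasi-likelihood test and Benjamini-Hochberg adjustment. The ratio rose for 3 of 12153 genes (0.0247%) and fell for 0 (0%), with 813 genes at an unadjusted p under 0.05. DESeq2 called 1 rise and 0 falls. The spread comes from the iCLIP pairs alone, and each lone RNA-seq library is assumed to vary like them. Nothing in the labels ties replicates to separate cultures, so these p-values measure only the spread between libraries, which may be technical. In these bulk libraries, fewer cells with an RNA and less of it per cell cannot be told apart.

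FDXR, ferredoxin reductase of the mitochondria and a p53 target, had 150 and 141 untreated and 598 and 1101 irradiated iCLIP counts, and 847 and 2012 RNA-seq counts. Its iCLIP share went from 0.0184% ± 0.0011 to 0.157% ± 0.012 (SD, n = 2), an 8.55-fold rise, while its RNA-seq share rose 2.37-fold. The log2 ratio rose by 1.91 (SE 0.24, edgeR adjusted p = 0.000438). GRIN2C, a glutamate receptor subunit, had 95 and 110 untreated and 473 and 580 irradiated iCLIP counts, and 128 and 286 RNA-seq counts, and its log2 ratio rose by 1.88 (SE 0.30, edgeR adjusted p = 0.00957). It lies at chr17:74842023-74861532, 964 bases from FDXR at chr17:74862497-74872994. INKA2, an inhibitor of the kinase PAK4, had 55 and 56 untreated and 144 and 283 irradiated iCLIP counts, and 1197 and 2292 RNA-seq counts, and its log2 ratio rose by 1.62 (SE 0.26, edgeR adjusted p = 0.00957). For all 3 genes both irradiated iCLIP libraries lay above both untreated ones, and the RNA-seq share was higher in the irradiated library too.

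The 3 calls rest on both untreated iCLIP libraries: leaving out either one left 0 calls, with adjusted p between 0.976 and 0.984 for the 3 genes, although the log2 changes stayed between 1.60 and 1.97. Over all edgeR alternatives the adjusted p ran from 0.000403 to 0.984 for FDXR, from 0.000653 to 0.984 for GRIN2C and from 0.0103 to 0.984 for INKA2, and GRIN2C was also lost without irradiated iCLIP replicate 1 (edgeR adjusted p = 0.0621). With DESeq2 the adjusted p was 1.12e-06 for FDXR, 0.117 for GRIN2C and 0.392 for INKA2. Of the p53 list, 2 of 26 tested genes rose (FDXR and INKA2) and 0 fell, and the median log2 change was 0.51 against -0.02 over all genes tested. NEAT1 had 21052 and 19748 untreated iCLIP counts and 4309 untreated RNA-seq counts, and its log2 change of 0.62 (SE 0.19) did not pass (edgeR adjusted p = 0.44). The estimate for MALAT1 was -0.07 (SE 0.20, edgeR adjusted p = 0.967), and that for NUDT16L1 was 0.89 (SE 0.37, edgeR adjusted p = 0.676). TP53BP1 had 0.42 (SE 0.25, edgeR adjusted p = 0.819).

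**Figure D5:**
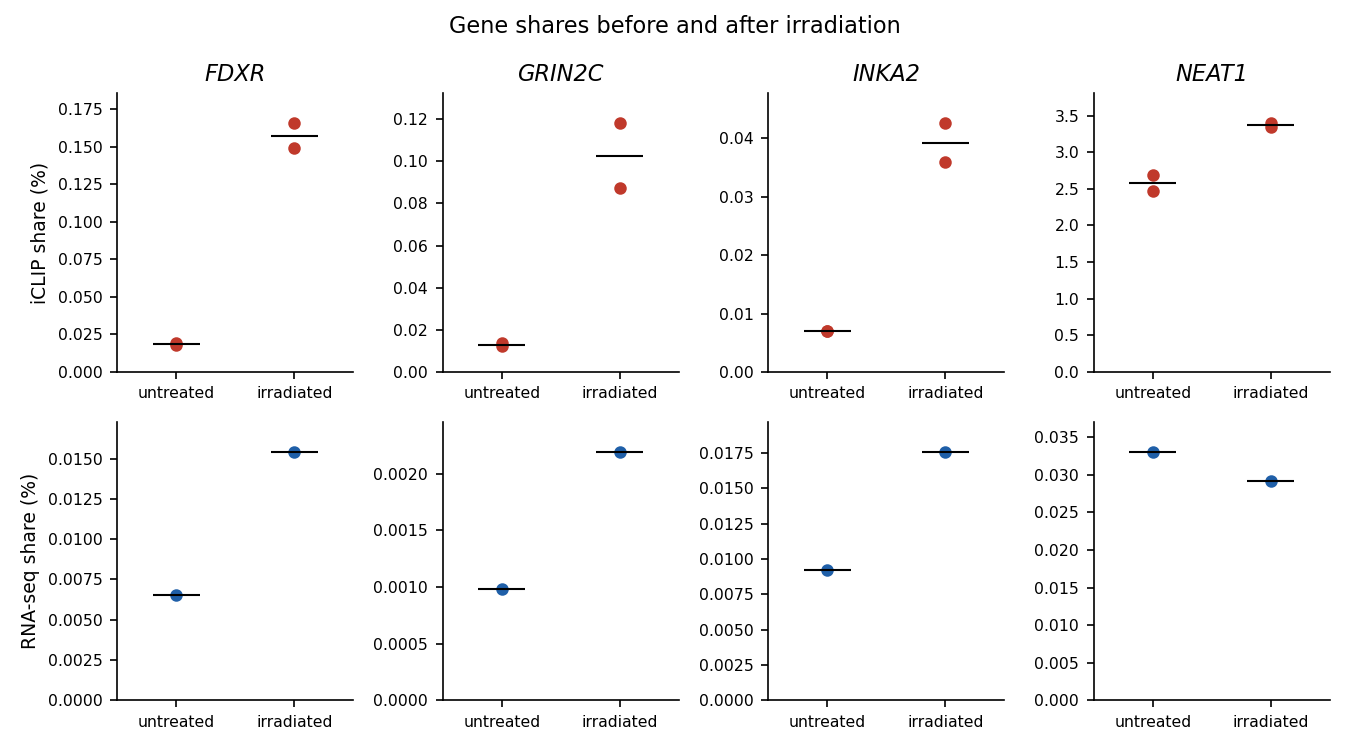
Share of gene counts in percent (y) in untreated and irradiated cells (x) for FDXR, GRIN2C, INKA2 and NEAT1, with iCLIP libraries in the upper row (2 per group) and RNA-seq libraries in the lower row (1 per group); bars are means. FDXR goes from 0.0184% to 0.157% in iCLIP, a larger step than in RNA-seq, whereas NEAT1 had a log2 change of the ratio of 0.62 that did not pass the test.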

How the data were processed

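The 6 libraries were iCLIP of FLAG-tagged TIRR (2 untreated, 2 irradiated) and RNA-seq (1 untreated, 1 irradiated). The deposited tables give raw, whole-number counts of cDNA for each gene, plus 1 intergenic row. They also give these as a percent of the library, per the file headers, which was not used. Each row also gives a gene length in bases. The genome build is hg38 and kallisto 0.44.0 is named, per the submitters' processing notes. No source used here names the aligner, duplicate removal, annotation release or strand setting. Of the compared genes, 9079 have the same length in the tables of both assays.

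From the counts, shares of gene counts and their ratios were computed with a prior count of 0.5 on the log2 scale, and ratios carry exact conditional 95% intervals, which cover counting error only. Symbols came from a gene name table that matched 99.97% of identifiers. RefSeq classes, positions and sequences (GRCh38.p14) were matched by symbol for 9832 genes. The interaction of assay and irradiation used edgeR 4.0.16 in R 4.3.3 (quasi-likelihood test, TMM, filterByExpr, Benjamini-Hochberg at 0.05, two-sided) and, as an alternative, DESeq2 1.42.0. Both the ratio rule and the edgeR step were tested on simulated counts, with counting error only for the rule and a fixed spread for edgeR. These tests do not measure how either step performs with the spread of these libraries. Other steps used Python 3.11.15, pandas 2.3.3 and scipy 1.17.1.

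The members, gene lists and tests were chosen with earlier results of these data known. Named genes are NEAT1, MALAT1, NUDT16L1 and TP53BP1, the 12 highest and 12 lowest called ratios, the 10 highest iCLIP shares, called interaction genes (up to 10 each way), the 3 highest and lowest of each RNA class with at least 20 genes, and, per list, up to 4 members with the most RNA-seq counts plus the highest and lowest ratio. Other names were chosen after their values were seen. Identifiers without an approved symbol were counted, not named, and some genes that the rule picks are not reported here. Across 12153 genes, the deviations of same-numbered iCLIP libraries from their group means had a correlation of -0.04 between untreated and irradiated cells.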

Additional observations from a re-analysis of the deposited data

Results flagged for a closer look

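The test of the interaction of assay and irradiation set 3 genes apart, whose ratio of iCLIP to RNA-seq shares differed between irradiated and untreated cells: FDXR (log2 change 1.91), GRIN2C (1.88) and INKA2 (1.62). FDXR and GRIN2C lie 964 bases apart on chromosome 17.

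Of 5176 genes with iCLIP counts in irradiated cells and no row in the irradiated RNA-seq table, 2 had a share whose exact 95% interval lay above those of both untreated iCLIP libraries in both irradiated ones. The pseudogene CRYBB2P1 took 0.169% of the irradiated iCLIP gene counts on average, against 0.0893% untreated, with 678 and 1120 counts against 701 and 712. A gene without an approved symbol took 0.0388% against 0.0169%.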

How the results depend on the processing

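The 1008 high and 689 low genes stayed within 1.5 times with intergenic counts in the totals and with totals without mitochondrial and top genes. The same held for equal gene lengths in both assays' tables, chosen after seeing the data. It also held for a minimum of 20 RNA-seq counts and for listing in both iCLIP libraries. That minimum could not change the low count, and that listing could not change the high count. A prior count of 2 left both counts as they were because the prior does not enter the calls. Leaving out an irradiated iCLIP replicate gave 1092 to 1213 high and 629 to 894 low genes. High and low counts were 1895 and 1679 beyond 2-fold, 458 and 249 beyond 8-fold, 357 and 1992 with TMM factors, 657 and 2297 with edgeR's test beyond 4-fold, and 257 and 96 for genes with no other gene within 5000 bases (fewer genes tested, chosen after seeing the data). A minimum of 200 RNA-seq counts gave 492 high genes. The rho with length was 0.62 for protein-coding genes, 0.62 at 200 counts, 0.55 for genes listed in both libraries, 0.63 without near neighbours, and 0.54 to 0.57 without 1 replicate.

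Of 27 lists with at least 10 compared genes, 17 had a median below that of all genes, and 17 to 19 under the alternatives. Length adjustment turned the collagen chains from 0.13 to -0.63, double-strand break repair from 0.41 to -0.02 and immediate early genes from -0.19 to 0.78, relative to all genes. Without irradiated replicate 2 the p53 targets went from 0.30 to -0.0048. Among genes with no near neighbour the p53 targets (-0.78, 8 genes), the collagen chains (-0.80, 7 genes) and double-strand break repair (-0.15, 4 genes) also lay below all genes, as did the collagen chains at 200 counts (-0.25). Of the 195 named genes with a ratio, 109 were called, and these kept their direction. Called genes had log2 ratios of at least 2.23 or at most -2.34. The shift of -1.22 with TMM factors could not reverse such a ratio, so the kept direction is no check of the scaling.

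Rises after irradiation numbered 3 with other scaling or a strict filter, 0 without a filter on low counts and 1 with DESeq2, and 0 to 17 without 1 iCLIP replicate, the 17 without irradiated replicate 2. Falls numbered 0 to 5, the 5 without that same library. With the iCLIP replicate number as a replicate block there were 4 rises and 0 falls; the labels give the numbers without saying that they pair samples. The causes were not tested.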

Other observations

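Some genes with large iCLIP shares lie outside the comparison because RNA-seq did not list them or gave fewer than 50 counts. FAM95A had 5287 and 10072 counts in the irradiated iCLIP libraries, or 1.32% and 1.52% of their gene counts, more than MALAT1 in the second library, and no row in the irradiated RNA-seq table. The ubiquitin pseudogene UBBP4 had 453 and 984 counts and no RNA-seq row. Of the genes related to spliceosomal U1 RNA, RNVU1-2A was uneven between the libraries, with 27 and 983 counts, whereas RNU1-67P had 237 and 348, or 0.0591% and 0.0523%. These genes have near-identical copies, so their counts are uncertain. In all, 12462 genes with irradiated iCLIP counts were not compared.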
